A study of Mus musculus with 9 samples.

Results

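Transcripts of 10 apolipoprotein genes, Apoa1, Apoa2, Apoa4, Apoa5, Apob, Apoc1, Apoc2, Apoc3, Apoe and Apom, were followed in mouse liver by RNA sequencing. The genes were taken by symbol, and all 10 were found among the 57010 genes of the deposited table. All libraries came from liver of male BALB/c mice, in 3 groups of 3. The CON libraries came from animals with no treatment. The CPT and AT3 libraries share 1 treatment label, that of acute liver injury from cisplatin (a DNA crosslinking platinum drug), and the design text names the injected agent as DDP solution. AT3 is not spelled out in the labels, while the title of the series names the plant lactone atractylenolide III and asks whether it lessens this injury. For dose, route, time and age nothing is given in the sources used here. Whether the replicates of a group were separate animals is not labelled, and the p-values below reflect the spread among libraries, some of it perhaps technical.

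Apolipoproteins are the protein part of lipoproteins, the particles that carry triglyceride and cholesterol in blood, and the liver makes most of them. Apob forms the backbone of very low density lipoprotein, Apoa1 and Apoa2 are the main proteins of high density lipoprotein, and the small C apolipoproteins move between particles and tune the enzyme lipoprotein lipase. Apoe is a ligand for the receptors that clear remnant particles.

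Totals ran from 21485021 to 28480479 estimated counts per library, and the 10 genes took from 4.79% to 6.63% of them. Transcripts of the mitochondrial genome took between 25.8% and 36.8% of the counts in CON, between 11.2% and 16.3% in CPT and between 9.79% and 11.4% in AT3. Levels are therefore given as CPM on library sizes scaled by TMM, a method that assumes that most genes do not change, and the same comparisons were run on TPM, in which the mitochondrial share lowers every other gene. The defining hepatocyte markers were present in all groups: 16 of 16 were tested, and their summed level was between 72280 and 81330 CPM in CON, between 90880 and 114400 in CPT and between 128300 and 137900 in AT3. They did not move 1 way: in CPT against CON 10 were called higher and 3 lower, Serpina1c (-2.85), Serpina1a (-0.79) and Ttr (-0.68). Alb, the largest part of the sum, was not called (-0.05). In CPT against CON, 11 of 12 sinusoidal endothelial, 11 of 12 stellate cell and 5 of 5 tested erythroid markers were called lower, with median log2 fold changes of -2.61, -2.68 and -7.02. Of 20 Kupffer cell and macrophage markers 8 were called lower and 3 higher. Over all tested genes, 30.8% were called lower and 30.0% higher in this comparison, so the macrophage count stands less apart than the others. In bulk tissue, fewer cells of a type and less RNA per cell cannot be told apart, and the part of these shifts in the results below was not tested.

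Of the 10 genes, 7 lie in 2 clusters (GRCm38, GENCODE M21). Apoa1 (chr9:46228580-46230466), Apoc3 (chr9:46232933-46235636), Apoa4 (chr9:46240696-46243459) and Apoa5 (chr9:46268633-46271919) share 43.34 kb, with Apoc3 on the minus strand and the others on the plus strand. Apoc2 (chr7:19671579-19677941), Apoc1 (chr7:19689481-19692660) and Apoe (chr7:19696109-19699188) share 27.61 kb on the minus strand. Apoa2 (chr1:171225054-171226379), Apob (chr12:7977648-8016835) and Apom (chr17:35128997-35132050) stand elsewhere. Within both clusters, genes a few kb apart gave different results: Apoc3 and Apoa4, 5.059 kb apart, and Apoc1 and Apoc2, 11.54 kb apart. The promoter windows of 4 cluster genes are shown because these genes cover the largest rises and, with Apoa1, a neighbour that was not higher. Each runs from 250 bases before to 50 bases after the RefSeq start (GRCm38.p6), 5′ to 3′ on the strand of the gene, and capitals mark matches to the motifs searched.
Apoa1, plus strand, chr9:46228380-46228679: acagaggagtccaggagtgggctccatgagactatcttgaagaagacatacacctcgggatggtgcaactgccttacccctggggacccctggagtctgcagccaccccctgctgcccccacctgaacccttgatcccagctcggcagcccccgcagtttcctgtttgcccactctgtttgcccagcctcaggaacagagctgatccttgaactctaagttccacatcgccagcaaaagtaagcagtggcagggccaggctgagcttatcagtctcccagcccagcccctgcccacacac
Apoa4, plus strand, chr9:46240594-46240893: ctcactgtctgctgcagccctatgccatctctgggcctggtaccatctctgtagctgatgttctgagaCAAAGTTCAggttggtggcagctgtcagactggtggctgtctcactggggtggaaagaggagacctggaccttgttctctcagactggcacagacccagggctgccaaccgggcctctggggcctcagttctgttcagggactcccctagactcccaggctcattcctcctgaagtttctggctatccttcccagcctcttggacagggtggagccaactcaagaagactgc
Apoa5, plus strand, chr9:46268358-46268657: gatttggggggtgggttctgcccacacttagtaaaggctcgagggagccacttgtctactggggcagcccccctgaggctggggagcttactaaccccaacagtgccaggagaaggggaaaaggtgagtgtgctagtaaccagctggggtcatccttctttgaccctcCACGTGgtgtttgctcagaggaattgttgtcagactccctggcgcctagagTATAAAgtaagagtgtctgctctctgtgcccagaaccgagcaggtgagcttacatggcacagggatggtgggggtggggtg
Apoc2, minus strand, chr7:19677892-19678191: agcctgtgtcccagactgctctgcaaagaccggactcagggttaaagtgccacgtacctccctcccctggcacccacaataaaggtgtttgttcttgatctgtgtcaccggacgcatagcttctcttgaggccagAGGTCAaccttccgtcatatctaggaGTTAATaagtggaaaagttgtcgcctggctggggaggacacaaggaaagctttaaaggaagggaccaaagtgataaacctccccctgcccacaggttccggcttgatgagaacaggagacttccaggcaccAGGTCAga

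The search covered 9 motifs on both strands: CAAAGNNCA, a core bound by HNF4A and other nuclear receptors, TATAAA, the TATA box, TTGCNNAA for C/EBP factors, TTCNNNGAA for STAT factors, TGACGT, the core of cyclic AMP and CREB3L3 elements, CACGTG, an E-box, AGGTCA, a nuclear receptor half-site, GTTAAT for HNF1, and CCAAT. Counted with the start base as 0, Apoa4 had the first of these from -182 to -174, a motif found in 6.36% of all 32851 RefSeq windows. For Apoa1 and Apoa4 the RefSeq start lies inside the GENCODE gene given above, so part of the stretch before it is within that gene. Apoa5 had CACGTG from -82 to -77 (7.15% of windows) and TATAAA from -31 to -26 (13.6%). Counted from another RefSeq start of Apoa5, with a window at chr9:46268383-46268682, the same matches lie from -107 to -102 and from -56 to -51. Apoc2 had AGGTCA from -115 to -110 and from 42 to 47 (16.3%), and GTTAAT from -89 to -84 (7.10%). The Apoa1 window held no match, which says only that these letters are not in it. In all windows TTGCNNAA was found in 10.8%, TTCNNNGAA in 8.30%, TGACGT in 7.51% and CCAAT in 37.4%. No 2 matches overlapped in the windows shown, and a match is a description of the letters, not of binding. RefSeq windows were at hand for 8 of the 10 genes, without Apoc1 and Apoc3.

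The first comparison, CPT against CON, asks what cisplatin injury does to these transcripts. In it 4 of the 10 genes were called higher, Apoa4, Apoc2, Apom and Apoa5, and 5 were called lower, Apoa1, Apoa2, Apoc1, Apoe and Apoc3, while on the scale of all TPM none of the 5 was called lower and Apoc3 and Apoe turned to positive values. Apob was not called. Genes were called at an adjusted p under 0.05 by edgeR's quasi-likelihood test with Benjamini-Hochberg adjustment over 13686 genes. The same test called 60.8% of all tested genes, 30.0% higher and 30.8% lower, so that a call alone sets these genes little apart. On the scale of all TPM 6631 of the 13686 were called higher and 1604 lower. Libraries of CPT and of CON kept apart in 9 of the 10 genes and in 64.2% of all genes. The median log2 fold change was -0.08 over the 10 genes and -0.02 over all tested genes. All 10 passed the filter on low counts.

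**Figure D1:**
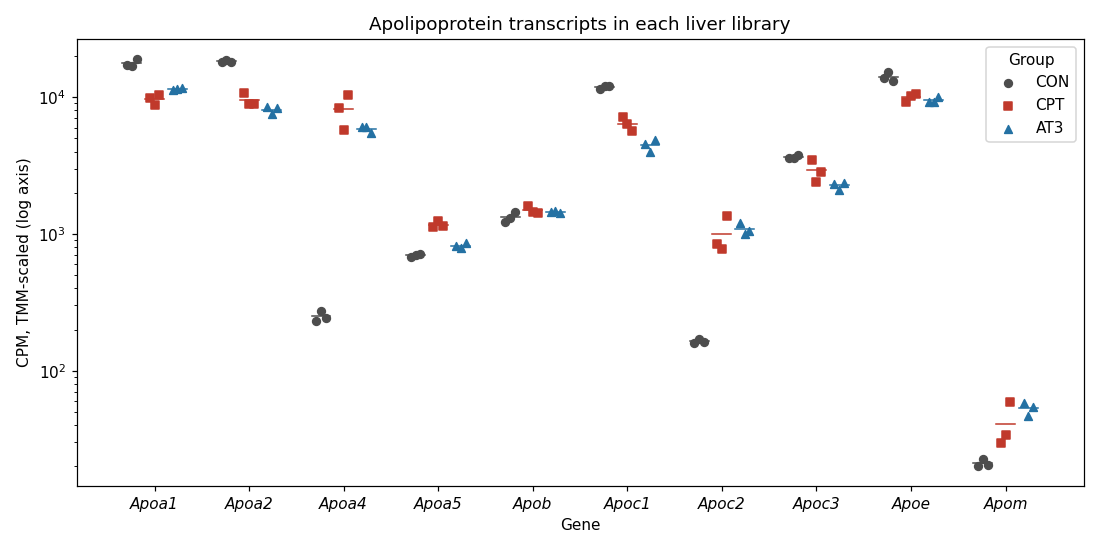
TMM-scaled CPM of the 10 genes (log axis) in each of the 9 libraries, with bars at the group means of 3 libraries. Apoa4 and Apoc2 sit far above CON in all 6 CPT and AT3 libraries, while Apob stays between 1222 and 1592 CPM in all 9.

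Apoa4 encodes a protein of chylomicrons and high density lipoprotein that the intestine and the liver secrete. Its level was 232, 274 and 244 CPM in CON, 8397, 5759 and 10323 in CPT, and 6066, 6048 and 5434 in AT3. All 6 libraries of CPT and AT3 lay far above the 3 CON libraries. The rise in CPT was 32.6-fold, with a log2 fold change of 5.03 ± 0.19 (SE, n = 3 libraries a group) and an adjusted p of 1.47e-11 in edgeR, and that in AT3 against CON was 23.4-fold (4.55 ± 0.19, adjusted p = 2.69e-11). Within a library, the TPM ratio of Apoa4 to Apoa1, which does not depend on scaling between libraries, was between 0.00656 and 0.00835 in CON, between 0.337 and 0.502 in CPT and between 0.237 and 0.272 in AT3. Of 20 markers of intestinal epithelium, 7 were at 0 in all libraries, Sis, Lct, Alpi, Muc2, Cdx1, Cdx2 and Reg3g, and 6 passed the filter. The summed level of those 6 was between 5640 and 6264 CPM in CON, between 1197 and 1277 in CPT and between 911 and 999.8 in AT3, most of it from Fabp1, which hepatocytes also make. Fabp2, an intestinal fatty acid binding protein, was the 1 marker of that list that rose (log2 fold change 1.85, adjusted p = 4.25e-10 in edgeR).

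Apoa5, which hepatocytes secrete and which helps lipoprotein lipase clear triglyceride, had 678, 705 and 711 CPM in CON, 1121, 1233 and 1149 in CPT, and 817, 786 and 859 in AT3. The 3 groups did not overlap, with AT3 between the other 2. The rise in CPT was 1.67-fold (log2 0.74 ± 0.09, adjusted p = 6.24e-06 in edgeR). In AT3 against CON the log2 fold change was 0.23 ± 0.09 (adjusted p = 0.0398), a call that was lost with the replicate number as a block (adjusted p = 0.0584) and without CON replicate 1 (0.104), CON replicate 2 (0.0535), AT3 replicate 1 (0.0713) or AT3 replicate 3 (0.103). An antisense gene, Gm47544, overlaps exons of Apoa5 and was named after its values were seen. It held 745, 622 and 617 counts in CON, 3.46% to 6.18% of the Apoa5 counts, and at most 10 counts in any CPT or AT3 library. No label says that the counting used strand, so reads of the pair cannot be told apart, and with both summed Apoa5 gave 0.17 in AT3 against CON (adjusted p = 0.133) and 0.67 in CPT against CON (1.58e-05).

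Apoc2, the activator that lipoprotein lipase needs, had 158, 171 and 162 CPM in CON, 842, 779.6 and 1361 in CPT, and 1207, 1003 and 1055 in AT3. Again all 6 libraries of CPT and AT3 lay above CON, and CPT replicate 3 was the highest of the 9. Apoc2 rose 6.07-fold in CPT (log2 2.60 ± 0.17, adjusted p = 5.87e-09 in edgeR) and 6.64-fold in AT3 against CON (2.73 ± 0.18, adjusted p = 2.94e-09). The gene Apoc2l, which overlaps it on the same strand, held 0.810% to 4.97% as many counts, and with both summed the rise in CPT was 2.58. Apoc1, an inhibitor of lipoprotein clearance whose gene is in the same cluster, had 11379, 12096 and 12120.3 CPM in CON, 7162, 6399.8 and 5670.3 in CPT, and 4526, 3997 and 4828 in AT3. Its 3 groups did not overlap and stepped down from CON to CPT to AT3. Apoc1 fell by 0.89 ± 0.12 on the log2 scale in CPT (adjusted p = 1.13e-05 in edgeR) and by 1.41 ± 0.12 in AT3 against CON (6.91e-08), and on the scale of all TPM the value in CPT was -0.25 and not called (adjusted p = 0.17). The within-library TPM ratio of Apoc2 to Apoc1 was between 0.00749 and 0.00765 in CON, between 0.0598 and 0.122 in CPT and between 0.111 and 0.138 in AT3.

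Apoc3, an inhibitor of lipoprotein lipase and of remnant uptake, had 3605, 3585 and 3792 CPM in CON, 3475, 2417 and 2838 in CPT, and 2312, 2102 and 2376 in AT3. CPT replicate 1 lay just under the CON libraries, and the AT3 libraries lay below all others. In CPT its log2 fold change was -0.33 ± 0.13 (adjusted p = 0.0326 in edgeR), a call lost when any of 6 libraries was left out, CON replicates 1 and 3, CPT replicates 2 and 3 and AT3 replicates 1 and 2, with adjusted p from 0.0508 to 0.171, and turned to 0.28 on the scale of all TPM. In AT3 against CON it was -0.69 ± 0.13 (adjusted p = 0.000187), and 0.02 on the scale of all TPM.

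Apoa1, the main protein of high density lipoprotein, had 17180, 16813 and 18956 CPM in CON, 9934, 8694 and 10433 in CPT, and 11339.7, 11417 and 11612 in AT3. AT3 lay between the other groups, without overlap. Apoa1 fell by 0.87 ± 0.11 on the log2 scale in CPT (1.82-fold lower, adjusted p = 8.32e-06 in edgeR), and on the scale of all TPM the value was -0.26 and not called (adjusted p = 0.133). In AT3 against CON it was -0.62 ± 0.11 (adjusted p = 0.000173), against 0.08 on the scale of all TPM.

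Apoa2, the second protein of high density lipoprotein, had 18033.5, 18669 and 18209 CPM in CON, 10681, 8933 and 8917 in CPT, and 8439.8, 7561 and 8274 in AT3. The CON libraries lay within a narrow range, far above the other 6. The fall in CPT was 1.92-fold (log2 -0.94 ± 0.11, adjusted p = 3.68e-06 in edgeR), and -0.32 and not called on the scale of all TPM (adjusted p = 0.0966). In AT3 against CON the log2 fold change was -1.18 ± 0.11 (adjusted p = 2.88e-07), and on the scale of all TPM it kept its sign.

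Apob, the structural protein of very low density lipoprotein, had 1222, 1318 and 1444 CPM in CON, 1592, 1458 and 1431 in CPT, and 1449.9, 1466 and 1418 in AT3. All groups overlapped. Its log2 fold change was 0.17 in CPT (95% interval -0.04 to 0.38, adjusted p = 0.157 in edgeR) and 0.12 in AT3 against CON (interval -0.09 to 0.34). On the scale of all TPM Apob was called higher in CPT, by 0.70 (adjusted p = 0.000701), and in AT3 against CON, by 0.65 (adjusted p = 0.00103). DESeq2 also called it in CPT, by 0.21 (adjusted p = 0.024).

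Apoe, which hepatocytes and macrophages make, had 13856, 15289 and 13218 CPM in CON, 9242.5, 10178 and 10564 in CPT, and 9248, 9177 and 9962 in AT3. CPT and AT3 overlapped, and both lay below CON. Its log2 fold change in CPT was -0.50 ± 0.11 (adjusted p = 0.00117 in edgeR), and 0.21 and not called on the scale of all TPM (adjusted p = 0.354). In AT3 against CON it was -0.58 ± 0.11 (adjusted p = 0.00031), and 0.32 on the scale of all TPM. The summed level of the 20 macrophage markers was between 99.7 and 113 CPM in CON, between 90.5 and 118 in CPT and between 118 and 129 in AT3. That sum joins markers that moved both ways, with 8 called lower and 3 higher in CPT against CON. Among those higher was Mpeg1, at 17.5, 43.4 and 54.2 mean CPM in CON, CPT and AT3. The part of macrophages in the level of Apoe was not tested.

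Apom, a lipocalin that carries sphingosine-1-phosphate on high density lipoprotein, was the least abundant of the 10, with 20.2, 22.6 and 20.3 CPM in CON, 29.7, 34.0 and 59.1 in CPT, and 57.8, 46.4 and 54.6 in AT3. CPT replicate 3 stood apart from the other CPT libraries and at the level of AT3. Apom rose 1.94-fold in CPT (log2 0.96 ± 0.19, adjusted p = 0.000533 in edgeR; 0.61 and 0.000369 without CPT replicate 3) and 2.51-fold in AT3 against CON (1.33 ± 0.19, adjusted p = 2.18e-05).

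**Figure D2:**
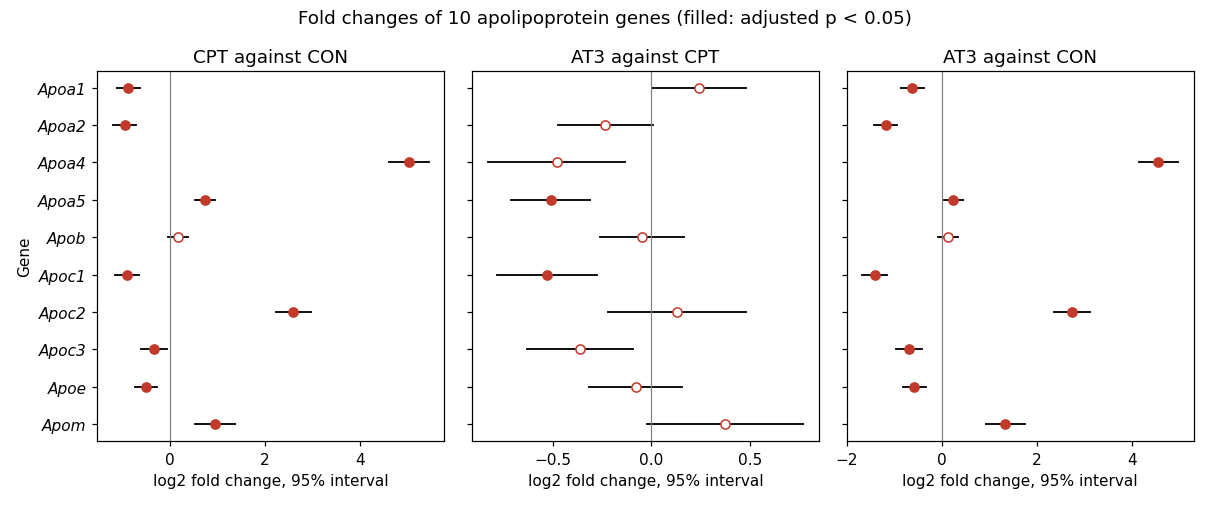
Log2 fold changes of the 10 genes from the edgeR fit with 95% intervals in the 3 comparisons, where filled points are called at an adjusted p under 0.05. The changes from CON span -0.94 to 5.03 in CPT, and those between AT3 and CPT span -0.53 to 0.37.

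The size and the calls of the falls depended on what the library was scaled to, and for Apoc3 and Apoe, and for Apoa1 in AT3 against CON, so did the direction. On the scale of all TPM the median log2 fold change of all genes was 0.29 in CPT against CON and 0.32 in AT3 against CON, and 80.5% of calls were to the higher side in both, against 49.3% and 48.9% by TMM. Relative to that shift, Apoa1, Apoa2 and Apoc1 in CPT lay below the median of all genes by more than their SE, while Apoc3 (0.28 ± 0.15) and Apoe (0.21 ± 0.19) lay within their SE of it. With TPM rescaled to nuclear genes, an alternative chosen after the data were seen that leaves out mitochondrial transcripts and their abundant copies Gm28437 and Gm28661, the medians were 0.06 and 0.05. On that scale Apoa1 (-0.72), Apoa2 (-0.78) and Apoc1 (-0.72) were called lower in CPT, Apoc3 (-0.18) and Apoe (-0.26) were not called, and Apob (0.24, adjusted p = 0.0491) was called higher. Apoa4, Apoc2, Apoa5 and Apom were called higher in CPT on all 3 scales.

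**Figure D3:**
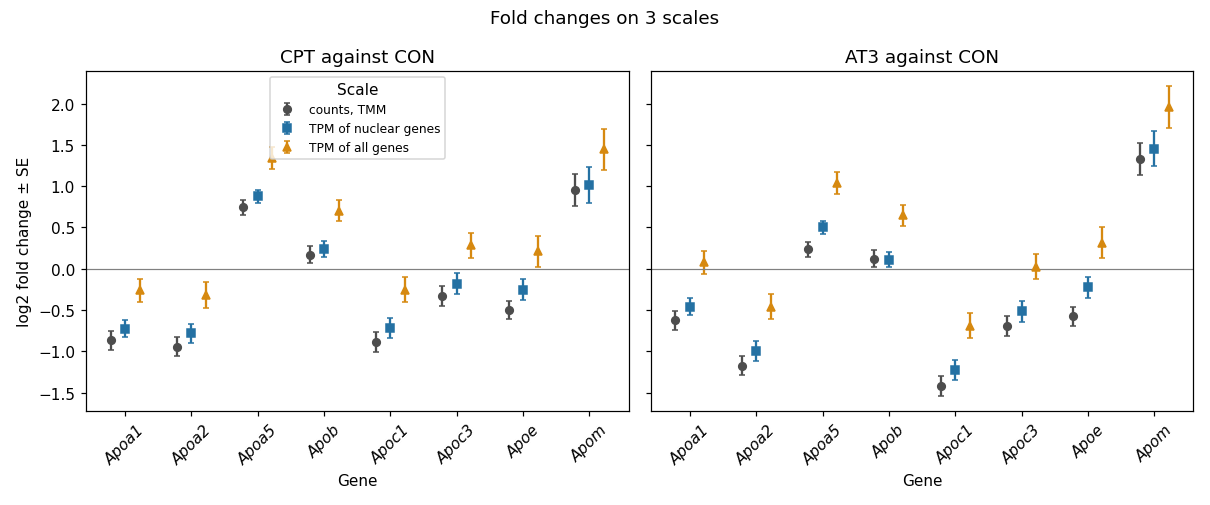
Log2 fold changes ± SE of 8 of the 10 genes on 3 scales, TMM-scaled counts, TPM rescaled to nuclear genes and TPM of all genes, with Apoa4 and Apoc2 left out for the axis. Values on all TPM lie above the others in each gene, and Apoc3 and Apoe change sign there in both comparisons, as does Apoa1 in AT3 against CON.

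TPM, which is scaled to transcript length, allows levels to be set in order between genes. In CON the order of mean TPM was Apoa2, 39282 ± 6242 (SD, n = 3), Apoc1, 33758 ± 4923, Apoa1, 13107 ± 1350, Apoe, 10553 ± 2576, Apoc3, 7231 ± 863, Apob, 393 ± 55.6, Apoc2, 256 ± 40.0, Apoa5, 203 ± 32.7, Apoa4, 96.1 ± 23.0, and Apom, 16.2 ± 3.56. Neighbours whose libraries overlapped, and so were not told apart, were Apoa2 with Apoc1, Apoa1 with Apoe, and Apoc2 with Apoa5. In CPT Apoa4, at 4689 ± 1370 TPM, moved from place 9 to place 6 and Apoc2, at 2256 ± 802, kept place 7, both now above Apob. Apoe and Apoa1 exchanged places in CPT while their libraries overlapped. In AT3 no neighbours overlapped, and the order was that of CON but for Apoa4 at place 6 and Apoc2 above Apob.

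The summed TPM of the 10 genes was 104900 ± 16060 in CON, 99400 ± 4011 in CPT and 90490 ± 2062 in AT3. The log2 difference was -0.07 for CPT against CON (two-sided exact permutation p = 0.9), -0.14 for AT3 against CPT (p = 0.1) and -0.20 for AT3 against CON (p = 0.2), and with 3 libraries against 3 the test cannot go below 0.1. By TMM-scaled CPM, a scale added after the data were seen, the sum was lower in CPT than in CON without overlap, at 68060 ± 1470 in CON, 50370 ± 3886 in CPT and 44980 ± 1209 in AT3. The log2 difference on that scale was -0.44 for CPT against CON, -0.16 for AT3 against CPT and -0.60 for AT3 against CON, each at the smallest exact p of 0.1. The makeup of this pool differed between groups. Apoa2 made up 37.4% ± 0.44 of it in CON, 31.5% ± 1.40 in CPT and 31.4% ± 0.62 in AT3, and Apoc1 32.2% ± 0.51, 28.4% ± 2.43 and 23.0% ± 1.13. Apoa4 and Apoc2 went the other way, with 0.0909% ± 0.0077 and 0.244% ± 0.0027 in CON, 4.69% ± 1.23 and 2.26% ± 0.75 in CPT, then 3.96% ± 0.40 and 2.88% ± 0.24 in AT3. Apoe made up 9.97% ± 0.93, 12.2% ± 1.86 and 14.2% ± 0.57, Apoa1 12.6% ± 0.65, 11.01% ± 0.86 and 15.3% ± 0.65, and Apoc3 6.92% ± 0.22, 8.85% ± 0.99 and 8.09% ± 0.14. Several of these directions turned with CPM in place of TPM, where the share of Apoe was 0.808 percentage points lower in CPT than in CON (a difference of -0.808), and AT3 against CON gave -0.452 for Apoa1 and -0.351 for Apoc3. The shares of Apoa2, Apoc1, Apoa4 and Apoc2 did not overlap between CPT and CON, where the exact permutation test gave its smallest p of 0.1 (0.143 after Benjamini-Hochberg adjustment over 30 comparisons). Shares sum to 100%, so they cannot all move 1 way.

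**Figure D4:**
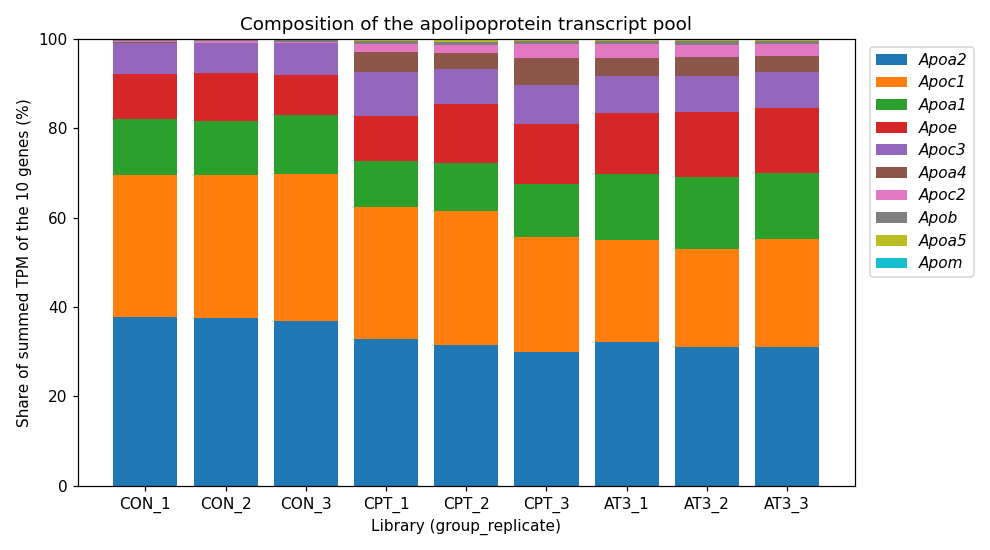
Share of each gene in the summed TPM of the 10, stacked to 100% for each library. Apoa2 and Apoc1 together take the most in all libraries, and the bands of Apoa4 and Apoc2 are hardly visible in CON and take 3.52% to 6.02% and 1.77% to 3.15% in the other libraries.

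The second comparison, AT3 against CPT, asks whether the AT3 libraries differ from injured liver, and few of the 10 genes were called. Apoa5 fell by 0.51 ± 0.09 on the log2 scale (1.42-fold lower, adjusted p = 0.0074 in edgeR), and Apoc1 by 0.53 ± 0.12 (1.44-fold lower, adjusted p = 0.0213). Neither was called on the scale of all TPM, where they were -0.30 (adjusted p = 0.33) and -0.43 (0.229). The call of Apoa5 was lost without AT3 replicate 1 (0.0513) or AT3 replicate 2 (0.0546), and that of Apoc1 without CPT replicate 1 (0.0662), CPT replicate 2 (0.0612), AT3 replicate 1 (0.0984) or AT3 replicate 2 (0.126). Of all tested genes 4.68% were called, 2.46% higher and 2.22% lower. AT3 and CPT libraries did not overlap in 5 of the 10 genes and in 27.0% of all genes. The Apoa5 value moved from CPT towards CON, whereas Apoc1 moved further from it.

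By edgeR 0 of the 10 were called higher, and DESeq2 called 0, while at an unadjusted p under 0.05 edgeR gave 1, Apoa1, and 4 lower. Apoa1 was 0.24 above CPT (95% interval 0.003 to 0.48, adjusted p = 0.236). Apoa4 was at -0.48 (interval -0.83 to -0.13, adjusted p = 0.108) and Apoc3 at -0.36 (interval -0.63 to -0.09, adjusted p = 0.114), and DESeq2 called both lower (adjusted p = 0.0439 and 0.0405). Without CPT replicate 2 Apoa4 was called lower by edgeR (-0.68, adjusted p = 0.0171), and without CPT replicate 3 it was at -0.27 (0.276). Apoc2 (0.13, interval -0.22 to 0.48) and Apom (0.37, interval -0.02 to 0.77) were not called, and both were called higher without CPT replicate 3, at 0.43 (adjusted p = 0.0238) and 0.73 (0.00128). Without CPT replicate 1 Apom was at 0.19 (adjusted p = 0.661). Apoa2 stood at -0.23 (interval -0.47 to 0.01), Apoe at -0.08 (interval -0.32 to 0.16) and Apob at -0.05 (interval -0.26 to 0.17).

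The third comparison, AT3 against CON, shares its CON libraries with the first. In it 4 genes were called higher and 5 lower, with Apob not called, where 64.4% of all tested genes were called, 31.5% higher and 32.9% lower. Libraries did not overlap in 9 of the 10 genes and in 70.3% of all genes. The median log2 fold change was -0.23 over the 10 genes and -0.04 over all. Log2 fold changes ran from -1.41 for Apoc1 to 4.55 for Apoa4 by TMM, and on the scale of all TPM Apoa1, Apoc3 and Apoe were positive instead. On that scale 5 genes, Apob among them, were called higher and 2 lower. Of the 13686 tested genes 7017 were called higher and 1698 lower there, so that 80.5% of calls were to the higher side.

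Among the 10 genes, the profiles over the 9 libraries that lay closest were those of Apoa2 and Apoc1, with a root mean square difference of 0.14 in centred log2 CPM, and of Apoa1 and Apoe (0.205). Among 5429 genes with a mean of at least 10 CPM, the closest profile to that of Apoa4 was Nrg4 (0.22), at 1.56, 38.6 and 34.3 mean CPM in CON, CPT and AT3, and then Steap4 (0.332), at 10.6, 344 and 218. Those closest to Apoc2 were Tmem120a (0.146), at 11.9, 65.2 and 72.3, and Gde1 (0.176). Apoc1 lay closest to Slco2b1 (0.0776) and Apoa2 to Plxnb2 (0.0681). Apoa1 lay closest to 4931406C07Rik (0.0831), Apoe to Cyp2d22 (0.0584), Apoc3 to Dpm2 (0.0559), Apob to Dynll1 (0.0372), Apoa5 to Sec23b (0.0953) and Apom to Kars (0.0821). These are descriptions over 9 libraries that share their group structure.

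Neighbours outside the clusters were read as well. Zpr1, 1.1 kb beyond Apoa5, rose by 1.04 ± 0.11 in CPT against CON, and Sik3, 4.4 kb before Apoa1, was not called (0.02). Clptm1, 6.5 kb from Apoc2, rose by 0.35. Bag6, near the lone gene Apom, fell by 0.59, opposite in sign by TMM to Apom. Of the 10 tested genes listed beside the Apoa1 cluster, 4 were called higher and 4 lower, and of the 10 beside the Apoe cluster, 4 higher and 3 lower, where 30.0% and 30.8% of all tested genes were called. These lists reach beyond the nearest genes. In the first, Zpr1, Sik3 and Bud13 lie within 11.1 kb of a member, and the others from 215.9 kb to 1258.3 kb away. The second reaches to 146.5 kb.

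Other apolipoproteins and related plasma proteins moved in both directions too. Of 15 tested in CPT against CON, 9 were called higher and 5 lower, with a median of 0.41. Over all tested genes, 30.0% were called higher and 30.8% lower, with a median of -0.02. Clu, which encodes clusterin, rose by 1.81 ± 0.13, Saa4, a constitutive high density lipoprotein protein, by 1.61 ± 0.11, and Apoh, a phospholipid binding plasma protein, by 1.23 ± 0.11. Apol9b and Apol9a, near-identical copies whose reads may be split, fell by 2.34 and 1.93. Apoc4, between Apoc1 and Apoc2 in the cluster, had a log2 fold change of -0.51 ± 0.11 (adjusted p = 0.00117 in edgeR) but 0.12 on the scale of all TPM. In AT3 against CPT the 3 called genes of this list were lower: Apoc4 (-0.64, adjusted p = 0.00533), Apol9b (-0.79, 0.0013) and Apol9a (-0.60, 0.015), the last not called without CPT replicate 2, AT3 replicate 1 or AT3 replicate 2 (0.0644 to 0.0837). Of all tested genes 2.22% were called lower in that comparison.

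Genes of a broad list for the assembly and secretion of lipoproteins were called higher more often than lower. Of 31 tested in CPT against CON, 17 were called higher and 9 lower, with a median of 0.40, against 21 and 2 on the scale of all TPM. Of all tested genes 30.0% were called higher and 30.8% lower by TMM, with a median of -0.02. On the scale of all TPM 80.5% of all calls were to the higher side. Mttp, the transfer protein that lipidates Apob, rose from 83.8 ± 2.1 to 179 ± 17.6 CPM (SD, n = 3), a log2 fold change of 1.09 ± 0.09 (adjusted p = 8.8e-08 in edgeR), and P4hb, its partner subunit, rose by 1.54 ± 0.11. Tmed2, a cargo receptor of early secretory vesicles, rose by 1.06 ± 0.09. The carboxylesterases Ces3a and Ces3b, lipid droplet hydrolases, fell by 1.90 each. In AT3 against CPT 1 of the 31 was called, Ces1d, a triacylglycerol hydrolase, higher by 0.95 ± 0.23 (adjusted p = 0.0303), from 35.7 ± 13.6 to 69.3 ± 8.6 CPM. Of all tested genes 4.68% were called in that comparison. The call of Ces1d was lost without CON replicate 1, CPT replicate 1 or any AT3 replicate (adjusted p from 0.0509 to 0.117).

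The lipase system, on which Apoc2, Apoc3, Apoa5 and Apoc1 act, had more genes called lower than higher in CPT against CON by TMM, which did not hold on the scale of all TPM. Of 20 tested genes 11 were called lower and 2 higher by TMM, with a median of -0.35, against 7 lower and 8 higher by limma-trend on log2(TPM + 1). Over all tested genes, 30.8% were called lower and 30.0% higher by TMM, and 80.5% of the calls by limma-trend were higher. Lipc, hepatic lipase, fell from 131 ± 13.3 CPM in CON to 11.2 ± 2.9 in CPT (log2 -3.54 ± 0.16, adjusted p = 8.59e-11 in edgeR), and Lmf1, a lipase maturation factor, was lower as well (-1.201). Lcat, which esterifies cholesterol on high density lipoprotein with Apoa1 as cofactor, rose by 0.94 ± 0.10. Lpl, lipoprotein lipase itself, was at 12.3 ± 0.2 CPM in CON, 3.09 ± 0.56 in CPT and 10.8 ± 1.8 in AT3. It fell by 2.004 ± 0.15 in CPT and was higher in AT3 than in CPT by 1.81 ± 0.15 (adjusted p = 2.48e-05). In AT3 against CON Lpl was at -0.19 by TMM, not called, and at 0.34 on the scale of all TPM. In AT3 against CPT Lipc (-0.70, adjusted p = 0.0254) and Pltp, the phospholipid transfer protein (-0.54, 0.0399), were lower. The call of Lipc was lost without CPT replicate 2 (-0.46, adjusted p = 0.12) or any AT3 replicate (0.0548 to 0.129), and that of Pltp without CPT replicate 1 or 3 or any AT3 replicate (0.0518 to 0.157).

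Among receptors that take up lipoproteins, 8 of 25 tested were called higher and 7 lower in CPT against CON, with a median of -0.10, against 13 and 3 on the scale of all TPM. By TMM these are shares near those of all tested genes, 30.0% higher and 30.8% lower. On the scale of all TPM 80.5% of all calls were to the higher side. Cd36, a fatty acid and lipoprotein scavenger receptor, rose by 2.72 ± 0.13, from 2.90 to 19.4 mean CPM, and Sdc1, a proteoglycan that binds Apoe-rich remnants, by 1.60 ± 0.14. Stab2, a scavenger receptor of sinusoidal endothelium, fell by 2.94, and it is one of the sinusoidal endothelial markers called lower above. Of 17 tested efflux and lipid export genes 3 were called higher and 6 lower in CPT against CON, which turned to 6 higher and 2 lower on the scale of all TPM. Abca1, which loads lipid onto Apoa1, rose by 0.99 ± 0.11, while the bile salt pump Abcb11 fell by 1.63 and the bile acid enzyme Cyp8b1 fell by 1.477.

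**Figure D5:**
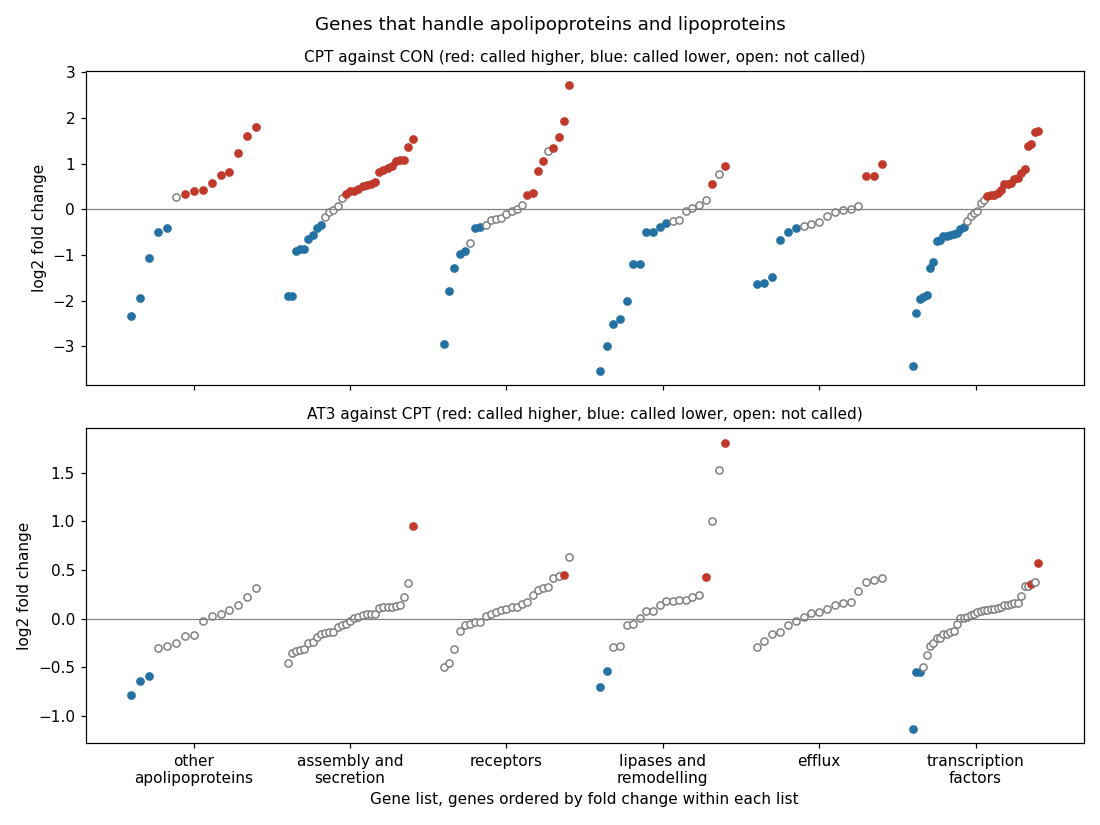
Log2 fold changes of the tested genes of 6 lists around the apolipoproteins, each point 1 gene, ordered within its list, in CPT against CON and in AT3 against CPT. Of the lipase list 11 of 20 genes are blue (called lower) in the upper panel, and of the assembly list 17 of 31 are red (called higher), while most points of the lower panel are open. Of all tested genes 30.8% were called lower and 30.0% higher in CPT against CON.

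Of 38 tested transcription factors known to act at apolipoprotein promoters, 16 were called higher and 16 lower in CPT against CON, with a median of -0.05, against 22 and 6 on the scale of all TPM. Over all tested genes, 30.0% were called higher and 30.8% lower by TMM. On the scale of all TPM 80.5% of all calls were higher. Hnf4a, a main hepatocyte factor at apolipoprotein promoters, was not called there (0.13, adjusted p = 0.242 in edgeR), at 240.3 ± 11.3, 263 ± 16.7 and 289.9 ± 17.9 CPM in CON, CPT and AT3. Stat3, which carries cytokine signals, rose by 1.72 ± 0.10 and Foxo1, a factor that insulin inhibits, by 0.81 ± 0.10. Nr0b2, a repressor induced by bile acids, fell by 3.44, Mlxipl, the glucose sensing factor, by 1.92 and Srebf1, a lipogenic factor, by 1.88. In AT3 against CPT Foxo1 was higher by 0.57 (adjusted p = 0.00481), and Cebpa (-0.55, 0.0159) and Nr1d1 (-1.14, 0.0101), a hepatocyte factor and a clock repressor, were lower. The call of Cebpa was lost without CPT replicate 2, AT3 replicate 1 or AT3 replicate 2 (adjusted p from 0.0817 to 0.0843), and that of Nr1d1 without AT3 replicate 1 (0.0603).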

How the data were processed

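The authors deposited estimated counts per gene, with symbols, and a table of TPM values for the same 9 libraries. Per the labels' protocols, column-purified RNA went into a SMARTer mRNA library kit. For aligner and counter nothing is given in the sources used here. Builds in the submitters' processing notes are GRCm38, mm10 and GRCm39, without a role. No label says that the kit or the counting used strand. The deposited estimated counts were rounded and tested in R 4.3.3 by edgeR 4.0.16 after TMM scaling and filtering of low counts by group. All 9 libraries entered 1 quasi-likelihood fit with a term for each group. Standard errors and 95% intervals follow from the quasi-likelihood F statistic. The authors' TPM values served for order, sums and shares, tested by two-sided exact permutation, and for limma-trend (limma 3.58.1) on log2(TPM + 1). That scale understates changes of low genes. DESeq2 1.42.0 was a further alternative.

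Totals of 21485021 to 28480479 counts put 3 counts at 0.105 to 0.140 CPM, which covers counting error only. Replicates differed by more than sampling noise, with chi-square per degree of freedom from 6.8 to 92.7. The fits were tested on simulated data in which a small part of the genes changed, unlike the broad change between CON and the other groups. Over the comparisons 29.4% to 46.4% of 1.5-fold changes were recovered, 54.8% to 74% of 2-fold and 92.6% to 94.9% of 4-fold ones. In such data a change of 1.5-fold often went uncalled. In the comparisons with CON smaller changes were called, such as that of Apoe in CPT (1.41-fold). The recovery under so broad a change was not tested. The members and gene lists were chosen with earlier results of these data known. The text names the 10 genes, up to 4 genes of each list and comparison with the smallest p, and the closest profiles. It prints part of these, and some genes of the lists are not reported here. Hnf4a, Fabp1, Fabp2 and Gm47544 were named after their values were seen. So were the hepatocyte markers Serpina1c, Serpina1a, Ttr and Alb and the intestinal markers at 0. Apoc2l, Gm28437 and Gm28661 were also named outside the rule. The promoter windows among the cluster genes were chosen after values were seen. Symbols were matched to GENCODE M21 (GRCm38) for coordinates, with all 10 found, and promoter sequences came from RefSeq.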

Additional observations from a re-analysis of the deposited data

How the results depend on the processing

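Over all alternatives, 179 of 210 values of the members counted as unchanged in CPT against CON. The numbers were 188 of 210 in AT3 against CPT and 190 of 210 in AT3 against CON. Unchanged means the same side of the threshold and, where either fit called the gene, the same direction. Values that changed sign without a call count as unchanged. Apob in AT3 against CPT, for example, ran from -0.0759 to 0.0009 with each library left out in turn. On log2(TPM + 1), log2(TPM + 0.1) and log2(TPM + 1) with no filter, 0 members were called lower in CPT against CON, 0 in AT3 against CPT, and 2, 2 and 1 in AT3 against CON, where the counts gave 5, 2 and 5. Of the 13686 tested genes, log2(TPM + 1) called 1604 lower in CPT against CON, 16 in AT3 against CPT and 1698 in AT3 against CON. The counts gave 4219, 304 and 4501. With TPM of nuclear genes the numbers of members called lower were 3 in CPT against CON and 0 in AT3 against CPT. On the 3 TPM settings CPT against CON gave Apoc3 0.2834, 0.2835 and 0.2834, Apoe 0.2099, 0.21 and 0.2099, and Apoc4 0.121 in each. AT3 against CON gave Apoa1 0.07906, 0.07907 and 0.07906, Apoc3 0.02354, 0.02355 and 0.02354, and Apoe 0.3157 in each, and Lpl 0.3427 on log2(TPM + 1). In AT3 against CPT DESeq2 called 4 members lower, and with no filter on low counts 4 were called lower and 1, Apom, higher. With scaling that left out mitochondrial transcripts and the 10 most abundant genes, Apoc3 lost its call in CPT against CON (adjusted p = 0.0521), as it did with no filter on low counts (0.0967) and in a fit of the 6 libraries compared (0.0711).

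With each library left out in turn, the number called in AT3 against CPT ranged from 0 to 2 lower and from 0 to 2 higher, the log2 difference of the summed level in CPT against CON from -0.164 to 0.0501, and the difference in the share of Apoa2 in AT3 against CPT from -0.827 to 0.57 percentage points. Without the most abundant member the summed level differed by 0.06377. With CPM in place of TPM, shares differed by -0.808 points for Apoe in CPT against CON and by -0.452 for Apoa1 and -0.351 for Apoc3 in AT3 against CON. Same-numbered replicates deviated together little or not at all (correlations from -0.0378 to 0.0762), so the numbers were not taken to pair the samples. Between CPT and AT3 same-numbered replicates gave small positive values, 0.0518 to 0.0762, and those of unlike number gave -0.0577 to -0.0185. With the replicate number as a block, Apoa5 in AT3 against CON was 0.23 (adjusted p = 0.0584), and no other member changed its call. The cause of these changes was not tested.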
